A study of Mus musculus with 2 samples.

Results

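The 10 neuropeptide genes described here are Npy, Gal, Vgf, Cck, Crh, Tac1, Penk, Pdyn, Adcyap1 and Sst, taken from a list of names among the 31053 genes counted. They were followed through nuclei of the mouse cerebral cortex after a mild traumatic brain injury (mTBI). The animals were Atf3-CreER::Sun1-sfGFP mice over 7 weeks old, with genotype Atf3-CreER:+/wt and SUN-SfGFP:+/wt. In them, cells that had switched on the injury gene Atf3 at the time of tamoxifen carried a green nuclear envelope. Tamoxifen was given 4 and 5 days post injury (dpi), and the cortex on the injured side was taken at 7 dpi. Nuclei sorted for GFP and DRAQ5 came from 2 pools of 4 animals, a male and a female library. The libraries held injured animals only and no uninjured nuclei, so no value below is a change with injury. Everything compared below is one kind of captured nucleus with another.

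Neuropeptides are made as long precursors that enter dense-core vesicles, where the convertases Pcsk1 and Pcsk2 cleave them, Cpe trims the ends and Pam amidates many of the products. After release they act slowly on G protein-coupled receptors. In the cortex most are known from interneurons (Sst, Npy, Cck, Penk, Pdyn, Crh and Tac1), while Adcyap1, which encodes PACAP, and Vgf, a granin-like precursor, are also made by pyramidal cells. In peripheral neurons with a damaged axon, Npy, Gal, Vgf and Adcyap1 are known to be raised, and Atf3 is among the transcription factors switched on there.

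The male library had 4044 called barcodes with 11007313 UMIs (unique molecular identifiers, 1 per captured RNA molecule) and a median of 1745.5 UMIs, and the female library had 4214 with 23202158 UMIs and a median of 3690. A field of the public description calls both libraries male. Xist stood at 3.33 and 1638 CPM (counts scaled to the same total) and Uty, on the Y chromosome, at 141 and 0.389 CPM, in the order male, female that all pairs of values below follow. Depth, sex and pool of animals cannot be told apart. A single barcode occurred in both libraries. Of 8171 labelled nuclei, 2499 carried 1 of 9 neuronal labels with at least 50 nuclei (1344 male and 1155 female), 395 were labelled Unknown (225 and 170) and 4028 were Micro-PVM (microglia and perivascular macrophages, 1690 and 2338). A further 81 nuclei in 5 smaller neuronal labels were left out. Median depth was 3572 and 8519 UMIs in the 9 neuronal labels, 3314 and 7918 in Unknown and 1298.5 and 3012.5 in Micro-PVM.

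Labels were first held against marker genes. The inhibitory markers Gad1, Gad2 and Slc32a1, summed, reached 443 and 400 CPM in Pvalb, 574 and 501 in Sst and 819 and 811 in Vip nuclei. Among excitatory labels the highest sums were in L6 IT CTX, at 105 and 39.0 CPM, where Gad1 led in the male and Gad2 in the female library. The marker Sst itself was nearly missing from the Sst label and Pvalb from the Pvalb label (1.58 and 0.516 CPM), while Vip was present in the Vip label (146 and 72.2 CPM). Nuclei of the Sst label did carry Grin3a (469 and 392 CPM), above every other label. They also carried Elfn1 (69.1 and 65.4 CPM), which does not set them apart from Vip nuclei (16.2 and 72.2 CPM). Unknown nuclei expressed neuronal genes (Snap25, Rbfox3 and Syt1 summed to 4231 and 4072 CPM, with Syt1 highest), together with Adarb2 (2102 and 1799 CPM), Prox1 (239 and 235 CPM) and Slc17a7 (222 and 137 CPM), and were given no cell type. They formed clusters 7 (190 and 143 nuclei) and 23 (35 and 27 nuclei). The authors' labels rest on these same counts, so a label and a gene's level in it are not independent. Doublets were not called and were kept.

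Any of the 10 genes was found in 49.0% of male and 62.4% of female neuronal nuclei, in 14.7% and 27.6% of Unknown nuclei and in 6.69% and 6.97% of Micro-PVM nuclei. In L5 PT CTX the shares were 59.1% and 81.7%, the highest of the labels in the female library, and in Sst nuclei 59.2% and 73.4%. Since deeper nuclei show more genes, every nucleus was also thinned to 2000 UMIs. This left out 310 male and 105 female neuronal nuclei and 1378 and 431 Micro-PVM nuclei that were shallower. In droplets, free RNA adds UMIs to nuclei that do not make a gene, so the Micro-PVM share stands beside each neuronal share as the background, at median depths of 1298.5 and 3012.5 against 3572 and 8519 UMIs.

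Vgf was found in the most neuronal nuclei, 24.6% of male (Clopper-Pearson 95% interval 22.3 to 27.0%) and 38.9% of female (36.1 to 41.8%), against 1.48% and 1.71% of Micro-PVM. After thinning these were 14.1% and 11.7% against 1.92% and 0.944%. Thinning reversed the order of the libraries, and the neuronal share stood above the background in both. Npy was found in 13.5% (11.7 to 15.4%) and 15.8% (13.8 to 18.1%) of neuronal nuclei against 0.769% and 0.984% of Micro-PVM, or 7.16% and 6.48% against 0.641% and 0.420% thinned. Adcyap1 had 10.5% (8.90 to 12.3%) and 20.5% (18.2 to 22.97%) against 0.651% and 0.941%, or 5.32% and 6.86% against 0% and 0.629% thinned. The gap between the libraries for Adcyap1 was much smaller at equal depth.

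Penk followed, with 6.40% (5.15 to 7.84%) and 10.1% (8.45 to 12.02%) of neuronal nuclei against 0.473% and 1.07% of Micro-PVM, and 3.58% and 3.52% against 0.641% and 0.682% thinned. Pdyn had 5.65% (4.48 to 7.03%) and 8.14% (6.63 to 9.87%) against 0.178% and 0.428%, and 3.48% and 2.76% against 0% and 0.210% thinned. Crh had 5.43% (4.28 to 6.78%) and 6.67% (5.30 to 8.26%) against 0.237% and 0.599%, and 2.71% and 2.10% against 0% and 0.420% thinned. These 3 genes stood clear of the Micro-PVM share before and after thinning. Empty droplets with 1 to 50 UMIs, a second background, held about as much Penk (21.4 and 22.3 CPM) as all neuronal nuclei (20.5 and 22.1). For Crh this was so in the male library (17.1 against 17.1 CPM). Vgf in empty droplets was also near the neuronal level in the male library (74.8 against 76.2 CPM), and lower in the female (50.2 against 65.3). Npy (62.0 and 30.1 against 74.7 and 37.0 CPM) and Adcyap1 (25.7 and 32.3 against 31.1 and 40.2) were somewhat lower in empty droplets than in neuronal nuclei. Cck stood nearer to the Micro-PVM share, with 5.06% (3.95 to 6.37%) and 5.11% (3.91 to 6.54%) against 2.60% (1.90 to 3.48%) and 1.28% (0.867 to 1.83%). Thinned, Cck was at 3.29% against 2.88% in the male and 1.43% against 0.734% in the female library, so the male share was near background.

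Gal, Tac1 and Sst were rare. Gal was found in 5 of 1344 male neuronal nuclei (0.372%, interval 0.121 to 0.866%) and 8 of 1155 female (0.693%, 0.299 to 1.36%), and in 0 Micro-PVM nuclei, which allows up to 0.178% and 0.128%. Tac1 was found in 0.595% (0.257 to 1.17%) and 0.346% (0.0944 to 0.884%) of neuronal nuclei against 0.296% (0.0961 to 0.689%) and 0.0855% (0.0104 to 0.309%) of Micro-PVM, with overlapping intervals. Sst was found in 0.298% and 0.0866% of neuronal nuclei against 0.118% and 0.214% of Micro-PVM, which is background. After thinning the neuronal shares were 0.193% and 0.190% for Gal, 0.290% and 0.0952% for Tac1 and 0.193% and 0% for Sst. A share limits nuclei with a UMI and not cells that make the peptide.

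**Figure D1:**
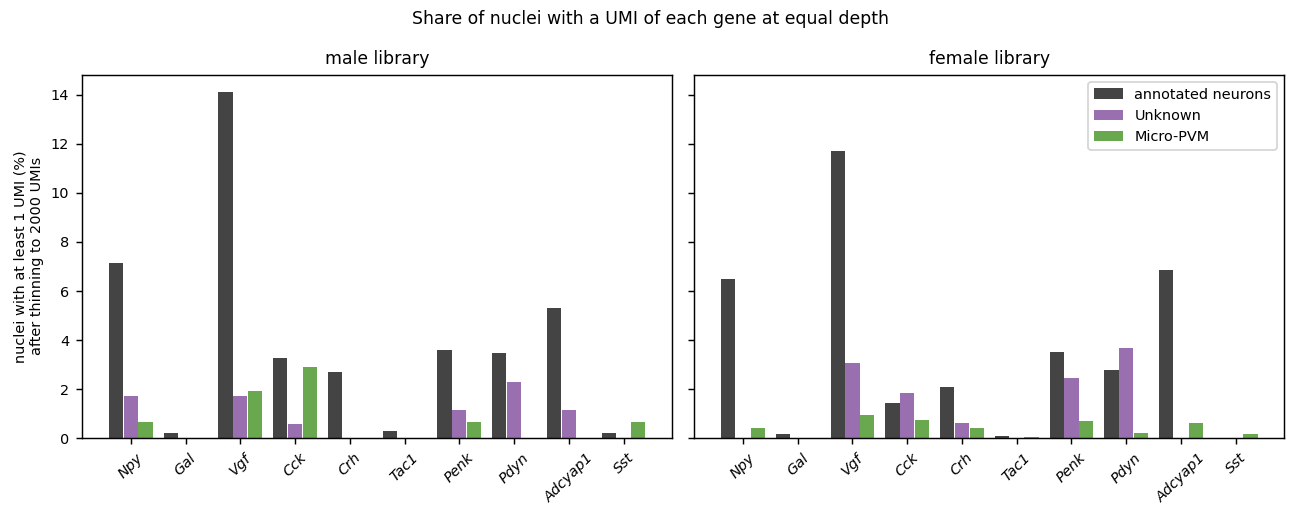
Share of nuclei with at least 1 UMI of each of the 10 genes, in percent, after every nucleus was thinned to 2000 UMIs, for neuronal labels, Unknown and Micro-PVM in each library. No intervals are drawn. Vgf, Npy and Adcyap1 have the largest neuronal shares, and the male Cck share (3.29%) is close to that of Micro-PVM (2.88%).

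Levels in each label follow in CPM, computed from the UMIs summed over its nuclei, for the male and the female library. CPM is not scaled by gene length, so levels are compared between labels and not between genes. Intervals on CPM are exact Poisson at 95%, and they hold the error of counting alone, without differences among nuclei or animals. Where a count was 0, 3 counts were taken as the limit. In the orders of labels, neighbours are said to overlap where the ranges from the lower to the higher library overlap, which leaves the intervals aside.

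Vgf (ENSMUSG00000037428, chr5:137026392-137033351, plus strand, GRCm38) encodes a precursor of several secreted peptides that neurotrophins induce. It was at 109 CPM (93.6 to 126) and 86.8 CPM (77.2 to 97.2) in L5 PT CTX. In L2/3 IT CTX-1 it was at 79.4 (66.5 to 94.2) and 79.4 (68.0 to 92.0), and in L2/3 IT CTX-2 at 76.4 and 78.1. L5 PT CTX was the highest in both libraries. L6 IT CTX (60.2 and 56.0), L6 CT CTX (57.3 and 58.3), Sst (57.8 and 46.6), Vip (64.9 and 38.9) and Pvalb (50.5 and 39.2) came next, with libraries that overlapped from each of these to the next. L4/5 IT CTX was lowest of the neuronal labels, at 38.7 (23.6 to 59.8) and 38.0 (25.1 to 55.3). Unknown nuclei were at 12.8 (6.59 to 22.3) and 9.46 (5.29 to 15.6), near the 10.4 (6.81 to 15.3) and 5.10 (3.66 to 6.92) of Micro-PVM. Every neuronal label held Vgf UMIs. Empty droplets with 1 to 50 UMIs held it at 74.8 and 50.2 CPM, above Sst, Vip, Pvalb and L4/5 IT CTX in both libraries.

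Adcyap1 (ENSMUSG00000024256, chr17:93199017-93206537, plus strand) encodes PACAP, a peptide of the secretin family. It was at 79.6 CPM (66.5 to 94.5) and 87.1 CPM (77.5 to 97.5) in L5 PT CTX, by value above every other label in both libraries. There it was found in 27.3% of male and 145 of 290 female nuclei, or 14.5% and 13.8% thinned. L6 CT CTX (23.9 and 60.6) and L6 IT CTX (40.2 and 34.1) followed and overlapped with each other. Vip (16.2 and 33.3), L2/3 IT CTX-1 (12.6 and 28.1), L2/3 IT CTX-2 (10.9 and 23.4), L4/5 IT CTX (9.67 and 15.5) and Pvalb (15.8 and 7.23) overlapped each with the next. In the Vip label all 6 female UMIs lay in 1 nucleus. Sst nuclei held 2 and 3 UMIs, or 2.51 (0.304 to 9.08) and 2.09 CPM (0.430 to 6.10). That is below Micro-PVM (4.41 and 2.98) in both libraries. Unknown was above it in the male library (5.32) and below it in the female, on 1 UMI (0.631, 0.0160 to 3.51), with overlapping intervals. Adcyap1 was not detectable above background in the Sst label at this depth. Empty droplets had 25.7 and 32.3 CPM.

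Npy (ENSMUSG00000029819, chr6:49822710-49829507, plus strand) encodes neuropeptide Y, which dampens excitability through Y receptors. Its level in L6 IT CTX was 377 CPM (296 to 472) in the male and 46.3 CPM (27.9 to 72.3) in the female library. In L2/3 IT CTX-2 it was 256 (188 to 341) and 43.0 (21.4 to 76.9). Both labels are shallow (medians of 1800 and 2708 and of 1506 and 1921 UMIs), and in both the male value lay far above the female. L2/3 IT CTX-1 stood at 86.0 (72.5 to 101) and 67.6 (57.2 to 79.3), L5 PT CTX at 66.8 (54.8 to 80.5) and 27.5 (22.2 to 33.6), Sst at 56.5 and 49.4, and L6 CT CTX at 47.8 and 53.9. Sst, L6 CT CTX and L5 PT CTX overlapped, while L2/3 IT CTX-1 lay above all 3 of them, narrowly so for the male value of L5 PT CTX. Without its top nucleus L2/3 IT CTX-1 was at 65.9 and 57.0 CPM, not above that value. L5 PT CTX was at 54.6 and 23.8 CPM without its own. Lowest were Vip (24.3 and 11.1), Pvalb (15.8 and 15.0) and L4/5 IT CTX (5.80, 1.20 to 17.0, and 11.3, 4.86 to 22.2). Unknown nuclei held 4 and 1 UMIs (4.25 and 0.631 CPM), no more than Micro-PVM (5.61 and 2.98). Empty droplets held Npy at 62.0 (41.5 to 89.0) and 30.1 CPM (19.8 to 43.8), near the level of L5 PT CTX and above Vip, Pvalb and L4/5 IT CTX.

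Npy was concentrated in few nuclei. In the male library 22 neuronal nuclei with at least 5 UMIs held 47.4% of all neuronal Npy UMIs, and in the female library 15 nuclei held 34.3%. A single L2/3 IT CTX-1 nucleus held 34 UMIs in the male library and another held 24 in the female. Of the nuclei with at least 5 Npy UMIs, 13 of 22 (59.1%) male and 15 of 15 female had an Atf3 UMI, against 24.7% and 44.7% of all neuronal nuclei. The male share differed by label: 6 of 7 in L2/3 IT CTX-1, 4 of 6 in L5 PT CTX and the only such nucleus in Sst, but 1 of 4 in L2/3 IT CTX-2 (14.3% of that label's nuclei) and 1 of 4 in L6 IT CTX (31.0%). Their median depths were 2316.5 and 7828 UMIs, against 3572 and 8519 over all neuronal nuclei. These medians pool labels of different depth, and within labels both orders occurred. In L5 PT CTX the nuclei with at least 5 Npy UMIs were shallower (2425 against 3790 and 8594 against 10700), and in the Sst label the single such nucleus of each library was deeper (11445 against 3797 and 15363 against 9031). Npy in L6 IT CTX of the male library was 270 CPM without the nucleus that held the most, and 430 CPM without the 13 nuclei with a UMI of an inhibitory marker.

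Penk and Pdyn encode opioid precursors, Penk of the enkephalins and Pdyn of the dynorphins. Penk (ENSMUSG00000045573, chr4:4133531-4138819, minus strand) was highest in Vip nuclei, at 105 CPM (56.2 to 180) and 139 CPM (89.9 to 205), from 13 and 25 UMIs in 5 of 34 and 9 of 27 nuclei. L2/3 IT CTX-2 (32.7 and 50.8), L6 CT CTX (33.4 and 42.6) and Pvalb (34.7 and 36.7) followed and overlapped. Their values were above those of L2/3 IT CTX-1 (24.7, 17.7 to 33.5, and 24.0, 18.0 to 31.4), but the male value of L2/3 IT CTX-2 rests on 6 UMIs in 3 nuclei and was 11.4 CPM without its top nucleus. L6 IT CTX (20.1 and 19.5), L4/5 IT CTX (7.74 and 19.7), Unknown (8.51 and 17.7), Sst (8.79 and 12.5) and L5 PT CTX (11.0, 6.53 to 17.4, and 6.65, 4.22 to 9.98) came last, each overlapping with the next. Micro-PVM had 3.21 and 3.11 CPM and empty droplets 21.4 and 22.3.

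Pdyn (ENSMUSG00000027400, chr2:129686565-129699844, minus strand) was at 71.6 CPM (54.2 to 92.8) and 70.2 CPM (57.2 to 85.3) in Sst nuclei, in 21.8% and 31.5% of them. L5 PT CTX, at 19.0 (12.9 to 26.9) and 17.6 (13.5 to 22.7), was next by its mean, and L2/3 IT CTX-2 (10.9 and 19.5) was above it in the female library. These 2 labels, L6 IT CTX (15.1 and 4.87), Unknown (7.44 and 8.20), Pvalb (7.88 and 0) and L2/3 IT CTX-1 (4.21 and 3.17) overlapped each with the next. In Pvalb the 5 male UMIs lay in 5 nuclei, and the 0 of the 150 female nuclei allows up to 1.55 CPM. L4/5 IT CTX had 0 and 2 UMIs. L6 CT CTX and Vip nuclei had 0 in both libraries, which allows up to 14.3 and 6.73 CPM and up to 24.3 and 16.7 CPM. The limits of Vip in both libraries and of L6 CT CTX in the male lie within the intervals of L5 PT CTX.

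Crh (ENSMUSG00000049796, chr3:19693401-19695396, minus strand) encodes corticotropin-releasing hormone. It was highest in Sst nuclei, at 37.7 CPM (25.4 to 53.8) and 24.3 CPM (17.0 to 33.9), in 20 of 174 and 30 of 143 of them. L6 IT CTX (35.1, 14.1 to 72.4, and 14.6, 5.36 to 31.8) overlapped with Sst, but its male value rests on 7 UMIs in 4 nuclei and was 15.2 CPM without the top nucleus. L2/3 IT CTX-1 (19.9 and 10.4), Pvalb (18.9 and 9.81), Vip (16.2 and 11.1) and L2/3 IT CTX-2 (21.8 and 0) overlapped in turn. Each Vip value rests on 1 nucleus with 2 UMIs. L5 PT CTX (6.74 and 3.18), L6 CT CTX (4.78 and 0) and L4/5 IT CTX (3.87 and 0) were lowest. Unknown nuclei held 0 and 1 UMI, Micro-PVM was at 1.60 and 1.87 CPM and empty droplets at 17.1 (7.38 to 33.7) and 6.69 CPM (2.46 to 14.6).

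Cck (ENSMUSG00000032532, chr9:121489824-121495694, minus strand) encodes cholecystokinin, a peptide of both pyramidal cells and basket cells. L6 IT CTX was highest, at 55.2 CPM (27.6 to 98.8) and 43.8 CPM (26.0 to 69.3). In the female library 14 of its 18 UMIs came from 1 nucleus, and without it the level was 9.83 CPM. L5 PT CTX (21.4 and 12.1), L2/3 IT CTX-2 (27.3 and 3.90), L2/3 IT CTX-1 (17.4 and 13.6), L4/5 IT CTX (17.4 and 11.3), L6 CT CTX (14.3 and 0), Sst (8.79 and 2.78), Pvalb (6.31 and 2.58) and Unknown (3.19 and 2.52) overlapped each with the next. Vip nuclei had 0 UMIs in both libraries, which allows up to 24.3 and 16.7 CPM. Micro-PVM had 19.6 (14.5 to 26.0) and 3.85 CPM (2.62 to 5.47), and empty droplets had 55.6 (36.3 to 81.4) and 21.2 CPM (12.8 to 33.1). In the male library both backgrounds were thus at or above the 17.3 CPM (14.1 to 21.0) of all neuronal nuclei.

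Gal, Tac1 and Sst did not pass the filter on low counts and have no test. Gal (ENSMUSG00000024907, chr19:3409915-3414544, minus strand) encodes galanin. It had 5 male and 10 female UMIs in all neuronal nuclei, of which 3 and 9 lay in inhibitory labels, at 1.58 and 3.10 CPM in Pvalb and 2.51 and 2.09 in Sst. In L5 PT CTX it had 1 and 0 UMIs, a limit of 0.868 CPM in the female library. Galanin RNA was thus close to 0 in these nuclei at 7 dpi. Tac1 (ENSMUSG00000061762, chr6:7554879-7565834, plus strand) encodes the precursor of substance P. It had 8 and 6 neuronal UMIs, the highest level being 5.02 (0.127 to 28.0) and 4.87 CPM (0.590 to 17.6) in L6 IT CTX from 1 and 2 UMIs, and 4.73 and 0 CPM in Pvalb. Sst (ENSMUSG00000004366, chr16:23889573-23890958, minus strand) encodes somatostatin. It had 4 and 1 neuronal UMIs, of which 3 male UMIs (3.77 CPM, 0.777 to 11.0) and 0 female UMIs lay in the Sst label, where 0 allows up to 2.09 CPM.

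**Figure D2:**
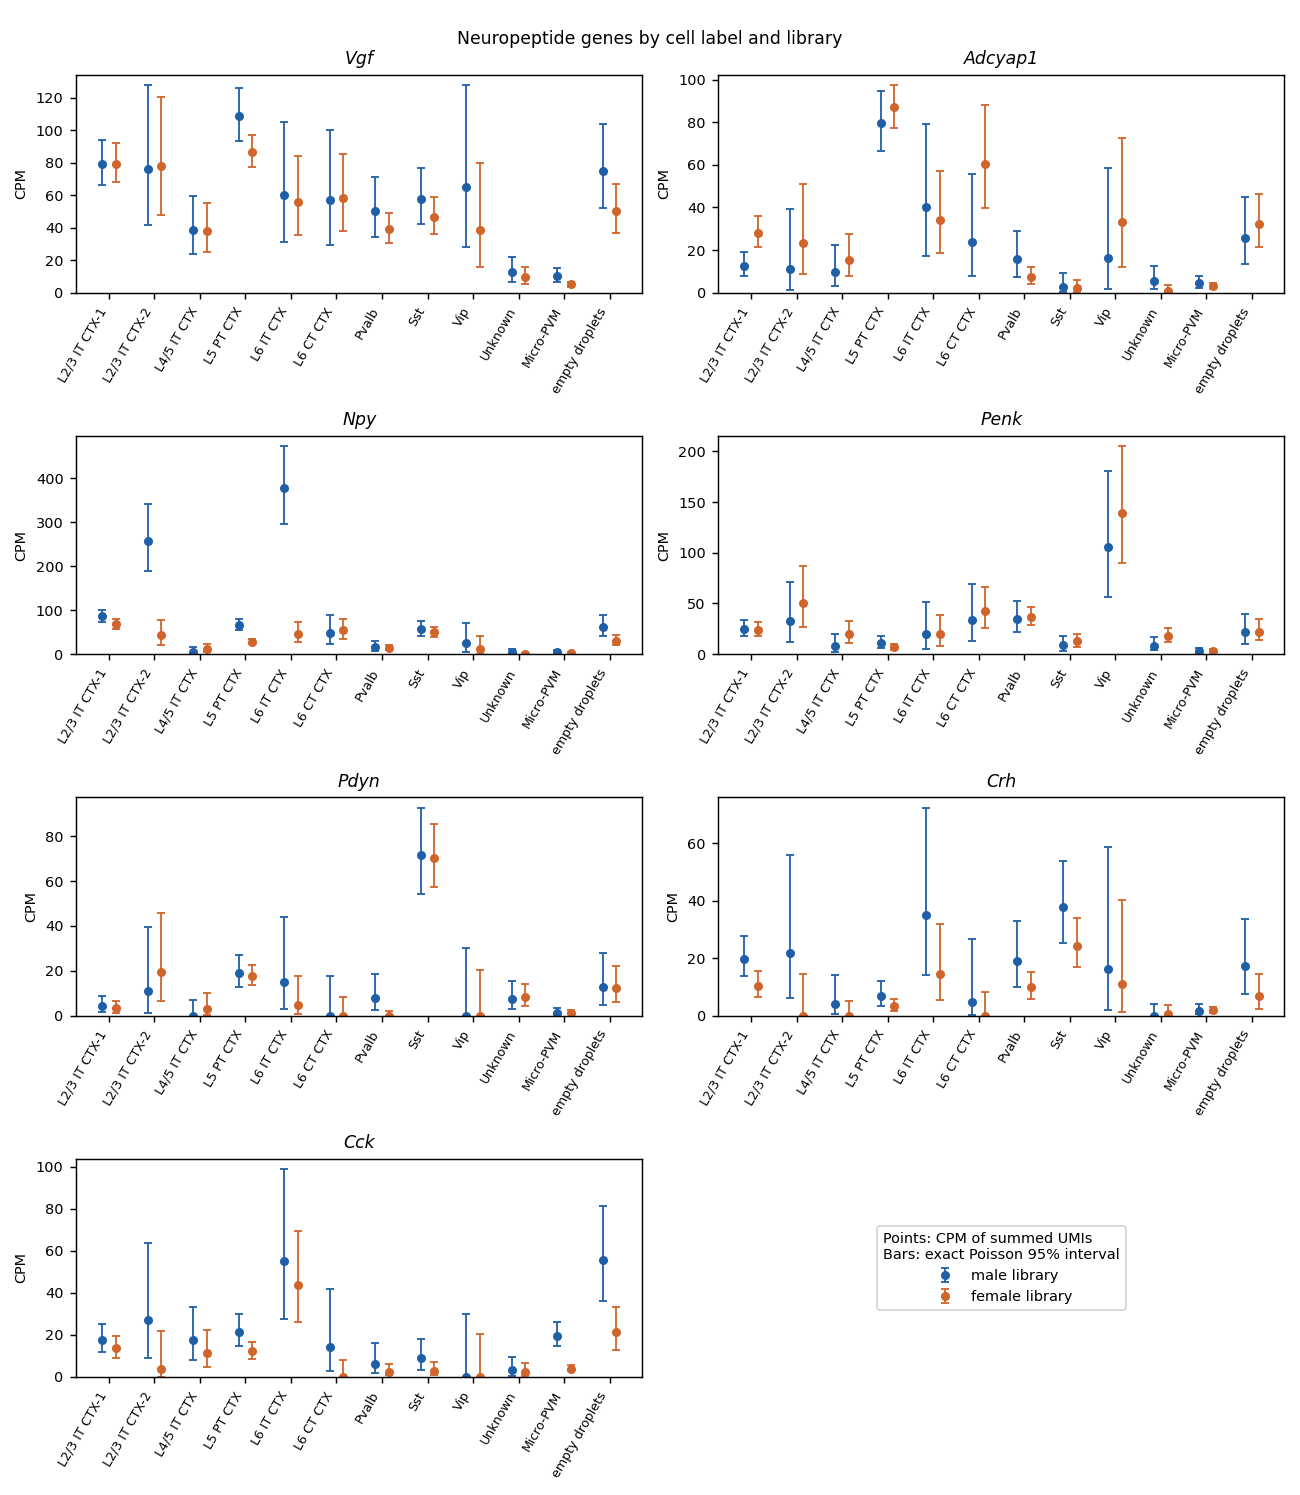
Level in CPM (y axis) of the 7 genes that could be tested, by label (x axis) and library, with 95% exact Poisson intervals. Adcyap1 is highest in L5 PT CTX (79.6 and 87.1), Pdyn in Sst (71.6 and 70.2) and Penk in Vip (105 and 139), and the 2 libraries lie farthest apart for Npy in L6 IT CTX (377 and 46.3).

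Since Atf3 belongs to the ATF/CREB family, which binds the cyclic AMP response element, promoters were searched for its letters. RefSeq promoters (GRCm38.p6, 250 bases before the start) were matched for 7 of the 10 genes, in 9 entries. The motifs searched on both strands were TGACGTCA, its shorter form TGACG, which TGACGTCA contains, and TGAGTCA, the site of AP-1. TGACGTCA was found in 1 of 7 genes, Sst, against 1.77% of the 27025 genes with a promoter entry. TGACG was found in 4 of 7 (Cck, Tac1, Adcyap1 and Sst), against 19.8% of genes, and TGAGTCA in 0 of 7, against 5.16%. The upstream stretch is shown for Sst (chr16:23890845-23891094, minus strand), the gene with the whole motif, and for Adcyap1 (chr17:93198767-93199016, plus strand) and Cck (chr9:121495695-121495944, minus strand), the genes with TGACG that could be tested. Capitals mark the match, which in Cck is CGTCA, the reverse complement of TGACG. It begins 48 bases before the RefSeq start in Sst, 91 in Adcyap1 and 47 in Cck. A match is a description and no shown site, and Vgf, Crh and Penk had no entry.
Sst: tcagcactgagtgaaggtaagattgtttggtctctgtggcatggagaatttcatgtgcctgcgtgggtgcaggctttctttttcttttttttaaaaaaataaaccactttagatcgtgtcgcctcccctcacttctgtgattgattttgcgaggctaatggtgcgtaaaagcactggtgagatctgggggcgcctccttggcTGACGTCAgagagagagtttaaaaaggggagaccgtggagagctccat
Adcyap1: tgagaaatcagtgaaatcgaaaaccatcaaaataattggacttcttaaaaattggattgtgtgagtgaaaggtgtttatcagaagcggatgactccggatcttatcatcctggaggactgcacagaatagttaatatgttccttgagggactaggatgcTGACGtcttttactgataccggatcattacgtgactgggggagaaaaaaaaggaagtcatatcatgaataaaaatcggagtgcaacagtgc
Cck: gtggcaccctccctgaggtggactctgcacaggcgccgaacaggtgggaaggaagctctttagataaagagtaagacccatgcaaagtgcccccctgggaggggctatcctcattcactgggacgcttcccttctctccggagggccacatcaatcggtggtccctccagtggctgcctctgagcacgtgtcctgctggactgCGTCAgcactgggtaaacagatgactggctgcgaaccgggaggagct

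For tests, UMIs were summed per label and library, which gave 22 sums of 11 labels, and 7 of the 10 genes were among the 10610 that passed the filter on low counts. A single fit in edgeR was tested with its quasi-likelihood test, Benjamini-Hochberg adjustment over all genes tested and a threshold of 0.05. Values named a log2 fold change come from this fit with their standard error (SE). The log2 ratios of the male and the female library alone, with 0.5 CPM added, follow in that order and have no test, and with 0 UMIs in a label they depend on what is added. Passing the filter depended on the labels where a gene was high, so the count of 7 supports nothing by itself.

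L5 PT CTX, the projection neurons of layer V, was compared with the mean of both L2/3 IT labels. The study turns on this contrast of layer V with layer II/III. PACAP RNA was higher and enkephalin RNA lower in L5 PT CTX. This does not extend to all deep labels, since L6 CT CTX held Penk at 33.4 and 42.6 CPM, above L2/3 IT CTX-1 (24.7 and 24.0). Adcyap1 stood at 79.6 and 87.1 CPM in L5 PT CTX against 12.6 and 28.1 in L2/3 IT CTX-1, without overlap. Its log2 fold change was 2.17 (SE 0.378, edgeR adjusted p = 0.000268), with single-library ratios of 2.78 and 1.83. Penk fell by 1.85 on the log2 scale (SE 0.373, edgeR adjusted p = 0.00122), with ratios of -1.26 and -2.23.

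Of the 7 genes tested, 1 was thus higher and 1 lower, where 6.13% of all genes tested were higher and 4.84% lower. The remaining 5 did not pass the test. Pdyn had a log2 fold change of 1.33 (SE 0.491, edgeR adjusted p = 0.0929) and ratios of 1.47 and 1.17. It passed with the library as a block (1.33, edgeR adjusted p = 0.0325). Npy had -1.12 (SE 0.473, edgeR adjusted p = 0.151) and ratios of -1.08 and -0.87, and it passed with the block (-1.13, edgeR adjusted p = 0.0138). Crh had -1.26 (edgeR adjusted p = 0.293), with ratios of -1.49 and 0.73. The female ratio is set by the 0.5 CPM added to L2/3 IT CTX-2, which had 0 UMIs (a limit of 11.7 CPM), and against L2/3 IT CTX-1 female L5 PT CTX was lower (3.18 against 10.4 CPM). Vgf had 0.38 (edgeR adjusted p = 0.268) and ratios of 0.55 and 0.23, and Cck had 0.22 (edgeR adjusted p = 0.896) and ratios of 0.04 and 0.77.

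Of 15 granins and processing genes, 1 was higher, 2 were lower and 12 did not pass, with a median log2 fold change of -0.04 against 0.01 over all genes tested. The largest difference was in Pcsk2, the convertase that makes dynorphins and enkephalins, at 41.6 and 46.0 CPM in L5 PT CTX against 479 and 417 in L2/3 IT CTX-1. It fell by 3.04 (SE 0.192, edgeR adjusted p = 1.11e-10), with ratios of -3.22 and -2.88. Pam fell by 0.74 (SE 0.170, edgeR adjusted p = 0.00404; ratios -0.77 and -0.71), and Ptprn, a membrane protein of dense-core vesicles, rose by 0.73 (SE 0.224, edgeR adjusted p = 0.0340; ratios 0.76 and 0.69). DESeq2 called 0 of this list higher, so the call of Ptprn was lost with it. Thus the label with the most Adcyap1 had little Pcsk2.

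Of 23 peptide receptors, 9 were tested, and 2 were higher, 1 lower and 6 not called (median -0.18). Galr1, the galanin receptor, was at 325 and 274 CPM in L5 PT CTX against 65.0 and 43.1 in L2/3 IT CTX-1, a log2 fold change of 2.64 (SE 0.308, edgeR adjusted p = 1.80e-06; ratios 2.999 and 2.48). Its ligand Gal had 1 and 0 UMIs in L5 PT CTX. Oprm1, an opioid receptor, was higher by 1.66 (SE 0.527, edgeR adjusted p = 0.0422; ratios 1.26 and 1.79), and of the 2 receptors called higher DESeq2 called 1. Adcyap1r1, the PACAP receptor, was at 4.90 and 2.89 CPM in L5 PT CTX against 22.9 and 20.4 in L2/3 IT CTX-1 and fell by 2.42 (SE 0.523, edgeR adjusted p = 0.00247; ratios -1.81 and -2.65). Adcyap1 and its receptor thus differed in opposite directions between these labels. Of 6 injury genes 3 were higher, Sprr1a (1.35, SE 0.285), Ddit3 (0.95, SE 0.308) and Gap43 (0.83, SE 0.176), each in both libraries (edgeR adjusted p = 0.00199, 0.0469 and 0.00202), of which DESeq2 called 2. The median of the 6 was 0.54. Of 25 other peptide precursors 24 were matched and 2 tested, of which edgeR called 0, with 1 (Nts) at an unadjusted p under 0.05 and 0 by DESeq2.

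Markers of other cells also differed. The inhibitory list summed to 7.35 and 3.18 CPM in L5 PT CTX (2 of 3 detected in each library, Gad1 highest, Slc32a1 at 0 in both). In L2/3 IT CTX-1 it summed to 20.5 and 10.9 CPM (3 of 3) and in L2/3 IT CTX-2 to 10.9 and 31.2 CPM (1 and 2 of 3). Gad2 was lower by log2 -3.01, and so were Kcnc2 of the Pvalb list (-1.64), Adarb2 of the Vip list (-1.52), Tcf7l2 of the thalamus list (-2.20) and Ctss of the Micro-PVM list (-1.56), while Grin3a of the Sst list was higher (1.41). Elfn1, also of the Sst list, was not called. It was slightly lower, at 3.67 and 2.02 CPM in L5 PT CTX against 4.21 and 2.27 in L2/3 IT CTX-1. Without nuclei that held a UMI of an inhibitory marker, Penk was at 11.4 and 6.83 CPM in L5 PT CTX against 26.3 and 24.0 in L2/3 IT CTX-1 and 33.2 and 53.9 in L2/3 IT CTX-2, so a difference in the same direction was there without them. Pdyn was then at 18.9 and 17.8 CPM in L5 PT CTX and 3.85 and 3.37 in L2/3 IT CTX-1.

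The mean of the 3 inhibitory labels was compared with the mean of the 6 excitatory labels, since most of these peptides are best known from interneurons. Penk and Crh were higher in inhibitory nuclei, and Adcyap1 and Cck were lower. Crh was at 28.3 CPM (20.6 to 38.0) and 15.8 CPM (11.9 to 20.5) in the inhibitory sums against 13.2 (10.0 to 17.0) and 5.34 (3.82 to 7.28) in the excitatory. By label, Pvalb nuclei (18.9 and 9.81) held no more Crh than L2/3 IT CTX-1 (19.9 and 10.4). Only Sst nuclei (37.7 and 24.3) were above L6 IT CTX (35.1 and 14.6) in both libraries. Penk was at 27.0 (19.5 to 36.5) and 32.1 (26.5 to 38.5) against 18.2 (14.4 to 22.6) and 17.4 (14.5 to 20.6). The Sst label, with the most inhibitory nuclei, was below the excitatory sums (8.79 and 12.5). Among the inhibitory labels, Penk was above those sums only in Vip and Pvalb nuclei. Adcyap1 was at 9.01 (4.93 to 15.1) and 6.47 (4.101 to 9.71) against 38.8 (33.2 to 45.1) and 56.2 (51.0 to 61.9). Within each library the intervals of the classes lay apart for Crh and Adcyap1, and for Penk they lay apart in the female library and overlapped in the male. For Adcyap1, L5 PT CTX was the highest excitatory label (79.6 and 87.1). Male Pvalb (15.8) and Vip (16.2) nuclei were above L2/3 IT CTX-1 (12.6), L2/3 IT CTX-2 (10.9) and L4/5 IT CTX (9.67). Female Pvalb nuclei (7.23) were below each of these.

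Of the 7 genes, 2 were higher and 2 lower, against 9.87% and 10.8% of all genes tested. Crh had a log2 fold change of 1.64 (SE 0.533, edgeR adjusted p = 0.0287), with ratios of 1.06 and 2.90. In the female library L2/3 IT CTX-2, L4/5 IT CTX and L6 CT CTX had 0 Crh UMIs, so the female ratio depends on the 0.5 CPM added. Penk had 0.85 (SE 0.224, edgeR adjusted p = 0.00748), with ratios of 0.83 and 0.87. Adcyap1 fell by 1.74 (SE 0.363, edgeR adjusted p = 0.000885), with ratios of -1.16 and -1.97. Cck was called lower (edgeR adjusted p = 0.0218) at 7.08 and 2.53 CPM against 20.9 and 13.2. Since Vip nuclei had 0 Cck UMIs no fitted fold is given, and with 3 UMIs in their place the log2 ratio was -1.39. This call was lost without L6 IT CTX and L2/3 IT CTX-2 (edgeR adjusted p = 0.0890). Npy had -1.21 (SE 0.452, edgeR adjusted p = 0.0599; ratios -1.30 and -0.76) and passed with the library as a block (-1.12, edgeR adjusted p = 0.0201). Vgf had -0.36 (edgeR adjusted p = 0.121; ratios -0.12 and -0.55). Pdyn was not called and has no fold, with 0 UMIs in Vip and L6 CT CTX. Its 62 and 101 inhibitory UMIs included 57 and 101 from the Sst label.

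Granins and processing genes divided, with 5 of 15 higher, 2 lower and 8 not called (median 0.07 against -0.07 over all genes). Pam (1.08, SE 0.0961), Pcsk1 (0.69, SE 0.239), Ptprn (0.59, SE 0.135) and Cadps (0.42, SE 0.0991) were higher in both libraries, and Cadps2 (-2.36, SE 0.330) and Pcsk2 (-1.94, SE 0.123) were lower in both. Among the 9 receptors tested 1 was higher and 4 lower (median -0.98, or -1.02 with labels at 0 set to 3 UMIs). Adcyap1r1 was at 71.0 and 49.6 CPM in Pvalb, 75.4 and 57.0 in Sst and 56.8 and 66.7 in Vip nuclei, and rose by 2.18 (SE 0.267, edgeR adjusted p = 8.85e-07; ratios 2.63 and 2.24). In L6 IT CTX it was at 80.3 and 12.2 CPM, so among excitatory labels the male library had a level as high. Galr1 (-2.31, SE 0.457; ratios -2.19 and -2.29) and Crhr1, the Crh receptor (-2.04, SE 0.219; ratios -1.96 and -2.00), were lower. Crh and Crhr1 were thus called in opposite directions between the classes. Single labels held both, such as L2/3 IT CTX-1 with Crh at 19.9 and 10.4 and Crhr1 at 102 and 117 CPM. Vipr1 and Cckbr were called lower with 0 UMIs in Vip nuclei. Of 6 injury genes, Atf3 was higher (1.62, SE 0.204), Sprr1a (-1.01), Ddit3 (-0.98) and Jun (-0.98) were lower (2 lower by DESeq2) and 2 were not called (median -0.55). Other precursors gave 0 calls of 2 by edgeR in either direction, with 0 at an unadjusted p under 0.05 and 0 by DESeq2.

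The marker genes moved as the labels do, with Gad2 (6.01) and Gad1 (5.36) higher and Slc17a7 (-2.55) lower in inhibitory nuclei. Mbp of the oligodendrocyte list was lower as well (-1.16). That list summed to 37.8 and 31.0 CPM in Pvalb (3 of 4 genes in each library) and 108 and 88.8 in L5 PT CTX (2 and 3 of 4, Mbp highest). Its part in the difference was not tested.

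Sst and Pvalb are the largest interneuron labels here and differed in both opioid precursors. Pdyn was at 71.6 and 70.2 CPM in Sst against 7.88 (2.56 to 18.4) and 0 in Pvalb nuclei. Penk was reversed, at 8.79 (3.54 to 18.1) and 12.5 (7.42 to 19.8) in Sst against 34.7 (21.7 to 52.5) and 36.7 (28.6 to 46.2) in Pvalb. Neither gene overlapped between the labels within a library. Of the 7 genes, 1 was higher and 1 lower in Sst, against 3.19% and 3.24% of all genes tested. Pdyn had a log2 fold change of 5.01 (SE 0.639, edgeR adjusted p = 1.01e-05), with ratios of 3.12 and 7.32, the latter against 0 UMIs. Penk fell by 1.68 (SE 0.410, edgeR adjusted p = 0.00985), with ratios of -1.91 and -1.504.

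Npy, at 56.5 and 49.4 CPM in Sst against 15.8 and 15.0 in Pvalb, had 1.78 (SE 0.647, edgeR adjusted p = 0.128; ratios 1.82 and 1.71). It passed with the library as a block (1.69, edgeR adjusted p = 0.0148). Adcyap1 (-2.09, edgeR adjusted p = 0.148; ratios -2.43 and -1.59) and Crh (1.22, edgeR adjusted p = 0.254; ratios 0.99 and 1.29) did not pass. Cck (0.47, edgeR adjusted p = 0.925) and Vgf (0.25, edgeR adjusted p = 0.779) were also not called. So the label named for somatostatin held more dynorphin RNA than Pvalb, while Sst itself had 3 UMIs in it.

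Of the 15 granins and processing genes 3 were higher in Sst nuclei (2 by DESeq2), and 0 were lower by edgeR, with 1 lower at an unadjusted p under 0.05 and 0 by DESeq2. Their median was 0.17 against 0.01. Crhbp, which binds the Crh peptide, was at 117 and 96.7 CPM against 11.0 and 29.4 and rose by 2.21 (SE 0.428, edgeR adjusted p = 0.00160; ratios 3.36 and 1.71). Pcsk2 rose by 1.997 (SE 0.257, edgeR adjusted p = 6.87e-06; ratios 1.79 and 2.07) and Ptprn2 by 0.64 (SE 0.179, edgeR adjusted p = 0.0297; ratios 0.80 and 0.49). Crh, Crhbp and Pdyn thus shared their highest label. Of the receptors, Oprm1 was higher (3.10, SE 0.642, edgeR adjusted p = 0.00234; ratios 5.42 and 2.33, the former against 0 UMIs in Pvalb) and 0 were lower by edgeR, with 2 at an unadjusted p under 0.05 and 0 by DESeq2 (median -0.00). Of the injury genes Atf3 was lower (-1.18, SE 0.323, edgeR adjusted p = 0.0244; ratios -0.995 and -1.29), while DESeq2 called 0 lower. By edgeR 0 were higher, with 1 at an unadjusted p under 0.05 and 0 by DESeq2 (median -0.24). Other precursors gave 0 calls of 2 by edgeR, with Nts higher at an unadjusted p of 0.0161 and 0 by DESeq2.

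As for markers, Elfn1 (4.62) and Grin3a (3.67) of the Sst list were higher and Erbb4 of the Pvalb list (-3.97) was lower. Mbp of the oligodendrocyte list was higher in Sst (1.501). That list summed to 90.4 and 55.6 CPM in Sst (2 of 4 in each library, Mbp highest) against 37.8 and 31.0 in Pvalb (3 of 4). Its part in the difference was not tested.

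**Figure D3:**
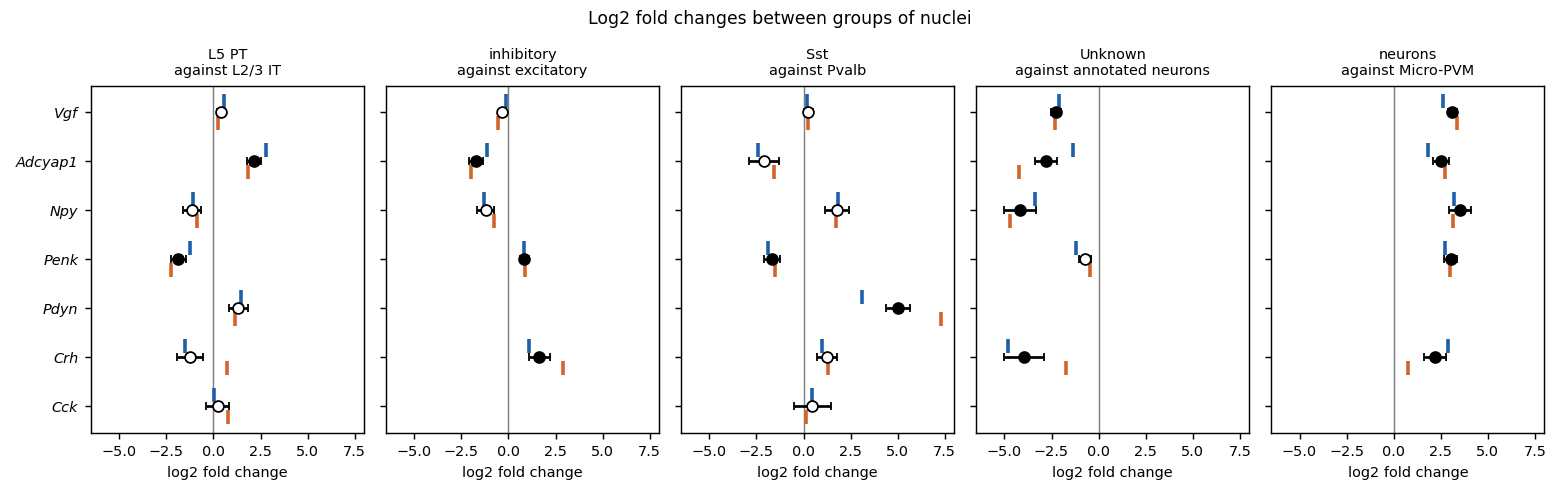
Log2 fold change (x axis) of each tested gene in the 5 comparisons, with its SE as a bar and the ratios of the male and female library alone as ticks; contrasts with a label at 0 UMIs are left out. Pdyn between Sst and Pvalb (5.01) and Npy in Unknown nuclei (-4.20) lie farthest from 0 among those called.

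Unknown nuclei were compared with the mean of the 9 neuronal labels. They held less RNA of 4 of the 7 genes. Of the general neuronal markers, Rbfox3 and Syt1 were higher in them and Snap25 was lower (-0.58, SE 0.151, edgeR adjusted p = 0.00339; ratios -0.56 and -0.60). Npy, Vgf, Adcyap1 and Crh were lower in both libraries, and in each library all 4 were at or near the level of Micro-PVM. Npy fell by 4.20 on the log2 scale (SE 0.848, edgeR adjusted p = 0.000294), with ratios of -3.35 and -4.68. Crh fell by 3.97 (SE 1.07, edgeR adjusted p = 0.00472; ratios -4.82 and -1.71), where the male value is against 0 UMIs and 3 female labels are at 0. Vgf fell by 2.27 (SE 0.252, edgeR adjusted p = 6.68e-08; ratios -2.11 and -2.32). Adcyap1 fell by 2.80 (SE 0.591, edgeR adjusted p = 0.000473; ratios -1.36 and -4.23), and this call was lost when 10% of each sum was subtracted as free RNA (edgeR adjusted p = 1). At 10% of the empty-droplet level (25.7 and 32.3 CPM), the subtraction exceeds the 2.51 and 2.09 CPM of Adcyap1 in the Sst label. That leaves the label at or near 0 UMIs, so the lost call does not measure the size of the difference.

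Of the 7 genes 4 were lower, against 14.3% of all genes tested. By edgeR 0 were higher, against 20.5% of all genes, with 0 at an unadjusted p under 0.05 and 0 by DESeq2. Penk was at 8.51 and 17.7 CPM in Unknown nuclei, above Micro-PVM (3.21 and 3.11), with a log2 fold change of -0.72 (SE 0.321, edgeR adjusted p = 0.0900; ratios -1.20 and -0.46). It passed with the library as a block (-0.71, edgeR adjusted p = 0.0416). Pdyn, at 7.44 (2.99 to 15.3) and 8.20 (4.37 to 14.0), was likewise above the 1.20 and 1.24 CPM of Micro-PVM. Pdyn and Cck were not called, and they have no fold because Vip nuclei held 0 UMIs of either. The male intervals of both genes overlap those of Micro-PVM, and empty droplets held more of each (Penk 21.4 and 22.3 CPM, Pdyn 12.8 and 12.3 CPM).

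Processing genes went both ways in Unknown nuclei, with 3 of 15 higher, 6 lower and 6 not called (median -0.56 against 0.07), where DESeq2 called 3 higher and 9 lower. Pcsk2 was at 755 and 618 CPM, its highest of all labels, and rose by 2.32 (SE 0.117, edgeR adjusted p = 4.26e-14; ratios 2.34 and 2.29). Cadps2 (2.21, SE 0.252) and Chgb, a granin (1.47, SE 0.216), were higher in both libraries, while Cpe (-1.78, SE 0.197), Pcsk1 (-1.19, SE 0.363), Scg3 (-1.001, SE 0.323) and Scg2 (-0.999, SE 0.217) were lower in both. Cpe stood at 150 and 151 CPM against 433 or more in every neuronal label. Of the 9 receptors 4 were higher and 3 lower (median -0.86), where DESeq2, which tests more genes, called 7 higher and 4 lower. Npy1r, the receptor Y1 for Npy, was at 45.7 and 59.3 CPM in Unknown nuclei and at most 15.5 CPM in any neuronal label, and it was 0 in L6 IT CTX, so no fold is given. Oprd1 and Vipr1 were called higher with a label at 0, and Adcyap1r1 was higher by 1.13 (SE 0.278, edgeR adjusted p = 0.00208; ratios 1.37 and 1.25). Galr1 (-3.96, SE 0.887), Oprm1 (-2.31, SE 0.634) and Crhr1 (-0.86, SE 0.266) were lower in both libraries.

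All 6 injury genes were lower in Unknown nuclei, with Atf3 (-4.42, SE 0.480), Gap43 (-4.05, SE 0.238), Ecel1 (-3.83, SE 0.436) and Ddit3 (-2.57, SE 0.420) first and a median of -3.20. Higher injury genes numbered 0 by edgeR, 0 at an unadjusted p under 0.05 and 0 by DESeq2. Other precursors gave 0 calls of 2 by edgeR, with 0 at an unadjusted p under 0.05 and 1 lower by DESeq2. Markers differed widely. The Vip list summed to 2102 and 1799 CPM (1 and 2 of 3 detected, Adarb2 highest, Vip at 0 in the male library) and the astrocyte list to 91.5 and 77.6 CPM (3 of 4, Slc1a3 highest). The Sst list summed to 7.44 and 0 CPM (2 and 0 of 3), the inhibitory list to 38.3 and 52.3 CPM (2 of 3, Gad1 highest) and the excitatory list to 246 and 155 CPM (2 of 3, Slc17a7 highest). Adarb2 (5.64), Slc17a7 (3.15), Slc1a3 (3.13), Rbfox3 (2.03), Mbp (1.72) and Gad1 (1.05) were higher, and Kcnc2 (-4.1001), Grin3a (-3.14) and Erbb4 (-2.16) were lower. Prox1 was called higher with 0 UMIs in L6 CT CTX. The part of another kind of cell in the difference was not tested.

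Last, the mean of the 9 neuronal labels was compared with Micro-PVM, which should lack these peptides and so measures the background of free RNA. Npy had a log2 fold change of 3.50 (SE 0.575, edgeR adjusted p = 8.61e-06; ratios 3.23 and 3.15) and Vgf of 3.12 (SE 0.221, edgeR adjusted p = 6.00e-12; ratios 2.64 and 3.34). Penk had 3.03 (SE 0.336, edgeR adjusted p = 1.99e-08; ratios 2.72 and 2.98) and Crh 2.19 (SE 0.603, edgeR adjusted p = 0.00272; ratios 2.87 and 0.74, the latter with 3 labels at 0). Adcyap1 had 2.51 (SE 0.404, edgeR adjusted p = 6.44e-06; ratios 1.84 and 2.70), and its call was lost with 10% free RNA subtracted (edgeR adjusted p = 1). As above, that step leaves the Sst label at or near 0 UMIs of Adcyap1, so the loss does not measure the size of the difference. Thus 5 of 7 genes were higher in neurons, where 29.6% of all genes tested were. Lower genes numbered 0 by edgeR, 0 at an unadjusted p under 0.05 and 0 by DESeq2, where 35.1% of all genes were lower. Cck and Pdyn were not called, and Pdyn was called by DESeq2.

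Of the 15 processing genes 14 were higher in neurons (median 2.58 against -0.10 over all genes), with Scg2 (3.71, SE 0.2499), Ptprn2 (3.15, SE 0.173), Scg5 (3.10, SE 0.184) and Cpe (2.98, SE 0.212) first, each in both libraries. Lower genes of this list numbered 0 by edgeR, 0 at an unadjusted p under 0.05 and 0 by DESeq2. Of the 9 receptors 4 were higher, Crhr1 (3.91, SE 0.307), Galr1 (3.25, SE 0.722), Adcyap1r1 (2.64, SE 0.360) and Oprm1 (2.56, SE 0.459), and Vipr1, at 0 in Vip nuclei, was called lower by edgeR and not by DESeq2, which called 10 receptors higher and 0 lower (median 2.56, or 2.64 with labels at 0 set to 3 UMIs). Vipr1 was at 8.02 and 7.46 CPM in Micro-PVM, and in L6 CT CTX it was higher (33.4 and 15.7 CPM). All 6 injury genes were higher in neurons (median 2.24), led by Ecel1 (3.39, SE 0.371), Gap43 (3.34, SE 0.204), Jun (2.32, SE 0.229) and Sprr1a (2.16, SE 0.355). Other precursors gave 0 calls of 2 by edgeR, with 0 at an unadjusted p under 0.05 and 1 higher by DESeq2. The Micro-PVM list summed to 4146 and 4291 CPM in its own label and to 510 and 835 CPM in L5 PT CTX (8 of 8 genes). Without neuronal nuclei with 3 or more UMIs of these markers only Npy and Vgf could be tested (10 values), and 4 of 4 calls were kept. The part of this list in the neuronal values of the other genes was not tested.

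**Figure D4:**
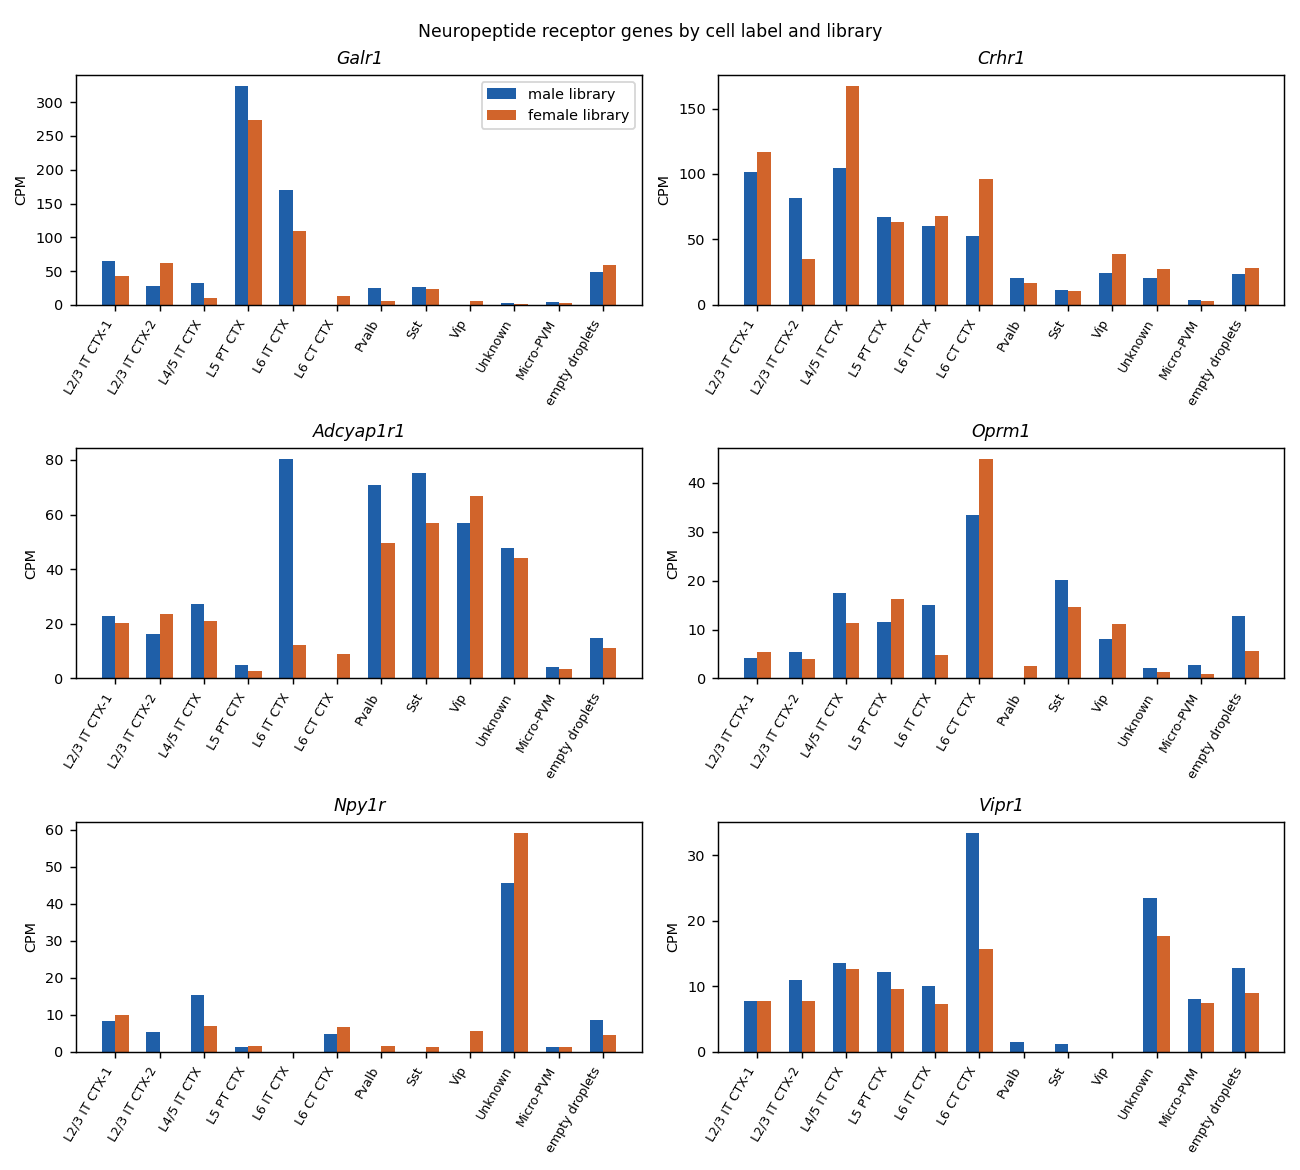
Level in CPM (y axis) of 6 peptide receptors by label and library. Galr1 is highest in L5 PT CTX (325 and 274), Adcyap1r1 is high in Pvalb, Sst and Vip nuclei, and Npy1r is highest in Unknown nuclei (45.7 and 59.3).

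Nuclei were finally divided by whether they held an Atf3 UMI, as a description with no test. Those with one were deeper (medians of 3770.5 against 3424 and 10163 against 6737 UMIs in excitatory nuclei), and CPM takes account of total depth only. In excitatory nuclei Npy was at 197 CPM (169 to 227) with and 58.1 CPM (50.4 to 66.7) without an Atf3 UMI in the male library. In the female library it was at 61.8 (53.6 to 71.0) against 24.9 (20.4 to 30.2). In both, Npy was higher beside Atf3. Adcyap1 was at 56.1 (42.0 to 73.3) against 34.1 (28.2 to 40.9) and 71.1 (62.2 to 80.9) against 44.9 (38.8 to 51.8), again with intervals apart. The mix of labels differed, with 74 of 190 male and 135 of 290 female nuclei with an Atf3 UMI from L5 PT CTX, against 278 of 827 and 155 of 545 without. Within L5 PT CTX Adcyap1 was at 109 (79.8 to 145) against 69.4 CPM (55.3 to 85.9) and 98.3 (84.5 to 114) against 74.2 CPM (61.5 to 88.7), with overlapping intervals. Npy within L5 PT CTX was at 130.4 against 44.6 and 36.4 against 17.3 CPM, and within L2/3 IT CTX-1 at 239 against 48.0 and 115 against 37.2 CPM, with intervals apart. These intervals leave out differences among nuclei. In the male library 7 nuclei held 76 of the 143 Npy UMIs of L2/3 IT CTX-1, so intervals that lie apart are no test of a difference. In L6 IT CTX the intervals of Npy overlapped (469.6 against 318 and 44.2 against 47.6 CPM). Cck was at 47.6 (34.7 to 63.7) against 13.6 (9.99 to 18.1) in the male and 16.4 (12.3 to 21.4) against 10.8 (7.92 to 14.4) in the female library, where the intervals overlap. Vgf had overlapping intervals, at 80.4 (63.3 to 101) against 84.4 (75.0 to 94.7) and 85.6 (75.8 to 96.3) against 69.2 (61.5 to 77.6).

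In inhibitory nuclei the pattern was another. Npy was at 33.8 (22.1 to 49.5) with and 40.8 CPM (27.9 to 57.6) without an Atf3 UMI, and 29.0 against 27.4 in the female library. Penk was higher beside Atf3, at 42.9 (29.5 to 60.3) against 11.47 (5.25 to 21.8) and 35.7 (29.1 to 43.4) against 17.8 CPM (9.49 to 30.5), with intervals that overlap slightly in the female library. The direction was the same within Vip nuclei (231 against 26.5 and 198 against 43.6 CPM) and Pvalb nuclei (43.9 against 17.8 and 39.4 against 6.18), on few UMIs and with overlapping intervals except for Vip in the male library. Within the Sst label (7 and 18 Penk UMIs) the male library ran the same way and the female library the other way. In excitatory nuclei Penk differed between the libraries, at 39.1 (27.6 to 53.9) against 12.4 CPM and 15.8 (11.7 to 20.7) against 18.6 CPM (14.7 to 23.2). Pdyn ran the other way, at 33.8 against 45.9 and 21.6 (16.5 to 27.7) against 54.9 CPM (39.2 to 74.7). Most Pdyn came from the Sst label, where it was at 73.8 against 70.2 and 64.9 against 80.3 CPM with overlapping intervals. The mix of labels thus differs between the groups of inhibitory nuclei with and without Atf3, and its part in the Pdyn values was not tested further.

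**Figure D5:**
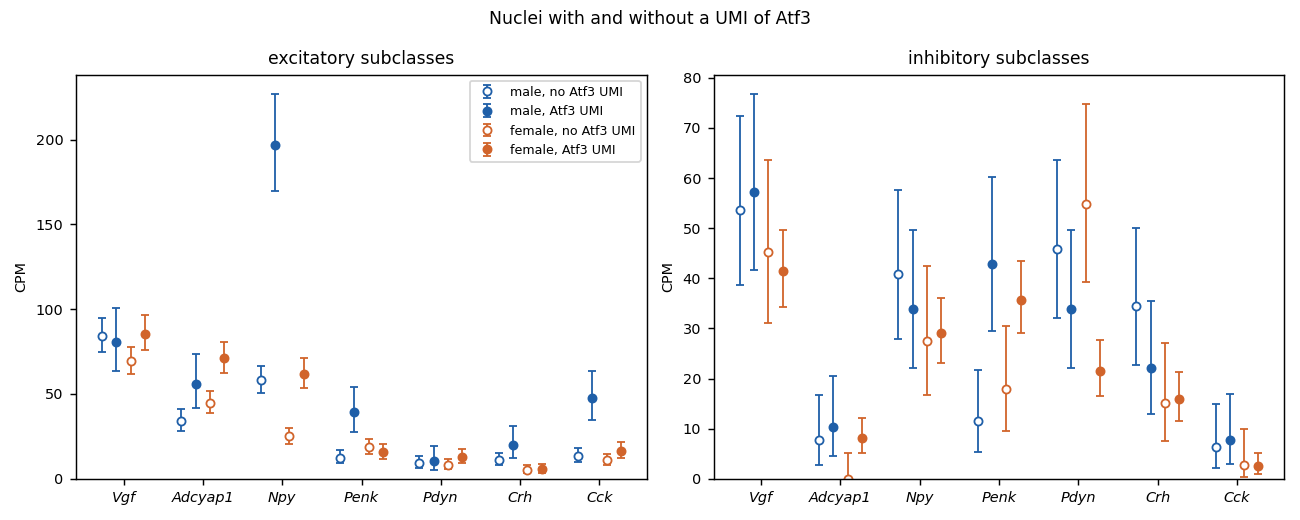
Level in CPM (y axis) of the 7 tested genes in excitatory and inhibitory nuclei with and without an Atf3 UMI, by library, with 95% exact Poisson intervals. Npy in excitatory nuclei (197 against 58.1 and 61.8 against 24.9) and Penk in inhibitory nuclei (42.9 against 11.47 and 35.7 against 17.8) are higher in nuclei with an Atf3 UMI.

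The genes most like each member over the 9 neuronal labels and Unknown were found by Pearson's r of log2 mean CPM with 1 added. The 10 points share their libraries and differ in depth, so r is a description. Npy was most like Eif5b (r = 0.933) and Gt(ROSA)26Sor (0.923), and Vgf most like Trib1 (0.962), Cpe (0.961) and Kif21b (0.953). Cpe, the carboxypeptidase that trims peptide precursors, was also on the list of processing genes. For Cck these were Tmem123 (0.963), Supt4a (0.962) and Ftsj3 (0.962), and for Crh Rab22a (0.964), Slc22a21 (0.939) and Zbtb43 (0.930). Penk was most like Kyat1 (0.942), Mbtps2 (0.940) and Hjurp (0.929), Pdyn most like Sh3gl1 (0.949), Bet1l (0.905) and Tmcc3 (0.893), and Adcyap1 most like Pusl1 (0.931), Tmem62 (0.929) and Ube2ql1 (0.912). None of these genes was another member.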

How the data were processed

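Nuclei of 2 libraries, each from 4 pooled animals, were measured by single-nucleus RNA sequencing (10X Genomics). The authors counted UMIs with CellRanger against pre-mRNA of GRCm38, so intron reads count, and the deposited values are counts without normalization, for called and for all barcodes. The headers name CellRanger 7.0.1 (male library) and 7.0.0 (female library), and the public processing notes 3.1.0. The deposited table gives the label of each nucleus, and the reference behind it is not named there.

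UMIs were summed per label and library. Tests used R 4.3.3 with edgeR 4.0.16 (limma 3.58.1): TMM factors, filterByExpr with the label as group, glmQLFit and glmQLFTest on 22 sums with 11 residual degrees of freedom, and Benjamini-Hochberg adjustment. The common dispersion was 0.0308 (biological coefficient of variation 0.176). The library pairs the sums. As a check, differences between the libraries were correlated over 10610 genes in 55 pairs of labels, with r from 0.0261 to 0.398 and a median of 0.142, and blocked values are given where they change a call. Shares, intervals and thinning (seed 1) used Python 3.11.15 with numpy 2.4.6, pandas 2.3.3 and scipy 1.17.1, and figures used matplotlib 3.10.9. Empty droplets with 1 to 50 UMIs numbered 404572 (467727 UMIs) and 666640 (896853 UMIs). In simulated counts with 50 genes changed at each size in 1 comparison, edgeR called 46 at 2-fold, 50 at 4-fold, 27 at 0.5-fold and 50 at 0.25-fold, and 13 unchanged genes. The changed genes were drawn from genes with more summed UMIs than any member, so these rates do not hold for the members.

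Alternatives were DESeq2 1.42.0, no filter on low counts, the library as a block, only the labels compared, nuclei with at most 6000 genes and 5% mitochondrial UMIs, 10% free RNA subtracted, neuronal nuclei with 3 or more UMIs of Micro-PVM markers left out, each library alone, thinning to 1000 UMIs and empty droplets of 1 to 20 UMIs. Leaving out L6 IT CTX and L2/3 IT CTX-2 was chosen after seeing the data. The members and lists were chosen with earlier results of these data known. All 10 members are named, and from each list and comparison up to 4 called genes per direction, by size of change; genes most like a member are the 3 with the highest r, for members with at least 10 CPM in a label. A few results that these rules select are not reported here.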

Additional observations from a re-analysis of the deposited data

How the results depend on the processing

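Of 35 log2 fold changes of members, 17 were called, and all 17 stayed called in the same direction with no filter on low counts, the library as a block, only the labels compared, nuclei within the limits of the methods, and DESeq2. These gained 4, 5, 2, 0 and 2 calls. With free RNA subtracted 15 of 17 stayed, and the lost calls were both of Adcyap1. That step leaves the Sst label at or near 0 Adcyap1 UMIs, so these losses do not measure the size of the differences. Leaving out L6 IT CTX and L2/3 IT CTX-2, chosen after seeing the data, kept 14 of 15 and gained 2. In each library alone all 17 had the same sign. Leaving out nuclei with mixed markers left only Npy and Vgf testable (10 values), kept 4 of 4 calls and gained 1.

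Without nuclei with mixed markers, edgeR called 318, 745, 223, 1595 and 3726 genes in the 5 comparisons, in the order of the report, against 1163, 2188, 682, 3691 and 6859. This alternative leaves few female nuclei (1 in L6 CT CTX, 2 in Vip, 9 in L4/5 IT CTX, 17 in Unknown and 23 of 290 in L5 PT CTX) and fewer genes to test. In it, Vgf changed sign between inhibitory and excitatory labels (0.0232) and between Sst and Pvalb (-0.00351). Pdyn between inhibitory and excitatory labels, a contrast with labels at 0 UMIs, changed sign with DESeq2 (0.48, adjusted p = 0.740) and without the 2 labels above (0.46). None of these was called there or in the report, and the cause was not tested.

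Thinning to 2000 UMIs moved the neuronal share of 9 of 10 members by more than 1 SD between the libraries, and thinning to 1000 moved 10. Depth limits every value of 0, and Gal, Tac1 and Sst were too low to test.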
